A study of Mus musculus with 2 samples.

Results

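Macrophage and myeloid cell genes are described here as 56 named genes, taken by symbol and found on the arrays through the RefSeq transcript of each probe. Of these, 54 matched at least 1 probe, out of 20884 named genes on the array, and the 54 were read by 69 probes. No probe matched Cd68 or Clec7a by transcript, so these members have no value here. The RNA came from cultures of epididymal fat cells of male C57/BL mice. After collagenase digestion and a brief spin, the layer below the floating cells gave the stromal vascular cells (SVC). The floating cells were spun harder, and those that sedimented were the small proliferative adipocytes (SPA). Each was grown to 90% confluency, kept for 3 days with insulin, dexamethasone and IBMX (a phosphodiesterase inhibitor), which induce fat cell differentiation, and then for 2 days in DMEM. The differentiated cultures are called SPAD and SVCD. Strain, sex, fat depot and medium were the same for both, the labels name no sort by surface marker, and the number of animals or cultures behind each RNA is not given. Each culture was measured on 1 Agilent single-colour array, so there are no replicates, nothing was tested, and every difference below compares these arrays. Signals are the scanner's processed intensities. Differences are log2 values after each array was scaled to its 75th percentile, which was 622 for SPAD and 678 for SVCD. The error after ± combines the SDs between repeat spots of a probe at that signal on both arrays. Each SD was first divided by the square root of the number of spots averaged for the gene's probe. The error covers spot error only.

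The scaling percentile and the share of probes well above background were close on the arrays (64.5% in SPAD and 65.6% in SVCD), and no non-control spot was saturated. Of 10 adipocyte markers, 9 were well above background on both arrays and 8 of these were at least 2-fold higher in SPAD, while Lpl was lower. The adiponectin gene Adipoq had a signal of 336 in SPAD and of 22.7 in SVCD, where the dimmest probe well above background had 8.60. Lep, which encodes leptin, was well above background on neither.

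Macrophages arise from circulating monocytes or from tissue-resident cells that renew themselves, and they live on the growth factor CSF1, which acts through the receptor encoded by Csf1r. They take up debris and microbes through Fc, lectin and scavenger receptors, kill with the superoxide made by the phagocyte NADPH oxidase, and digest what they engulf in lysosomes. Many of their activating receptors have no signalling part of their own and pair with the adaptors FcRγ (Fcer1g) or DAP12 (Tyrobp), whose ITAM motifs recruit the kinase Syk. In adipose tissue they are a regular part of the stromal vascular fraction and gather around dying fat cells in obesity.

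Most of these genes were lower in SPAD than in SVCD, but by very different amounts. All 54 were well above background on at least 1 array, 52 of them on both and 2, Fcgr1 and Cx3cr1, on the SVCD array alone, as were 5.55% of all genes detected on either array. At least 2-fold lower in SPAD were 35 of the 54 (64.8%), whereas 14.1% of the 15626 named genes detected on either array were. At least 2-fold higher were 3 of the 54 (5.56%), namely Clec4n, Clec4a2 and Clec4d, against 16.3% of all genes. Thus 38 of the 54 were past 2-fold in either direction, against 30.4% of all genes, and the remaining 16 lay within 2-fold. The median log2 difference was -1.43, with quartiles of -2.99 and -0.50, and that of all detected genes 0.06. At least 4-fold lower were 19 members (35.2%), against 5.53% of all genes, and at least 10-fold lower were 11 (20.4%), against 1.69% of all genes. Cd72 and Slamf9 had the lowest differences of all 14077 genes detected on both arrays, and Coro1a the 5th lowest. In whole cultures like these, fewer cells of a type and less RNA per cell cannot be told apart.

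The scale of the arrays bears on the direction of the members near 0. The spike-in controls are control RNAs added to each labelling. Their log2 differences before scaling ran from 0.64 to 1.76, with the next highest at 0.77. Scaled to the median of these few probes, every difference was lower by 0.83. Then 51 members lay below 0 and 3 above it, against 46 and 8 in the main values, and 45 were at least 2-fold lower. Among the genes detected on both arrays and past 2-fold, those lower in SPAD made up 48.1% in the main values and 87.9% on the spike-in scale. Only Clec4n, Clec4a2 and Clec4d stayed above 0 on that scale, while Csf3r, Cd53, Lyz2, Cd14 and Lyz1 turned negative.

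**Figure D1:**
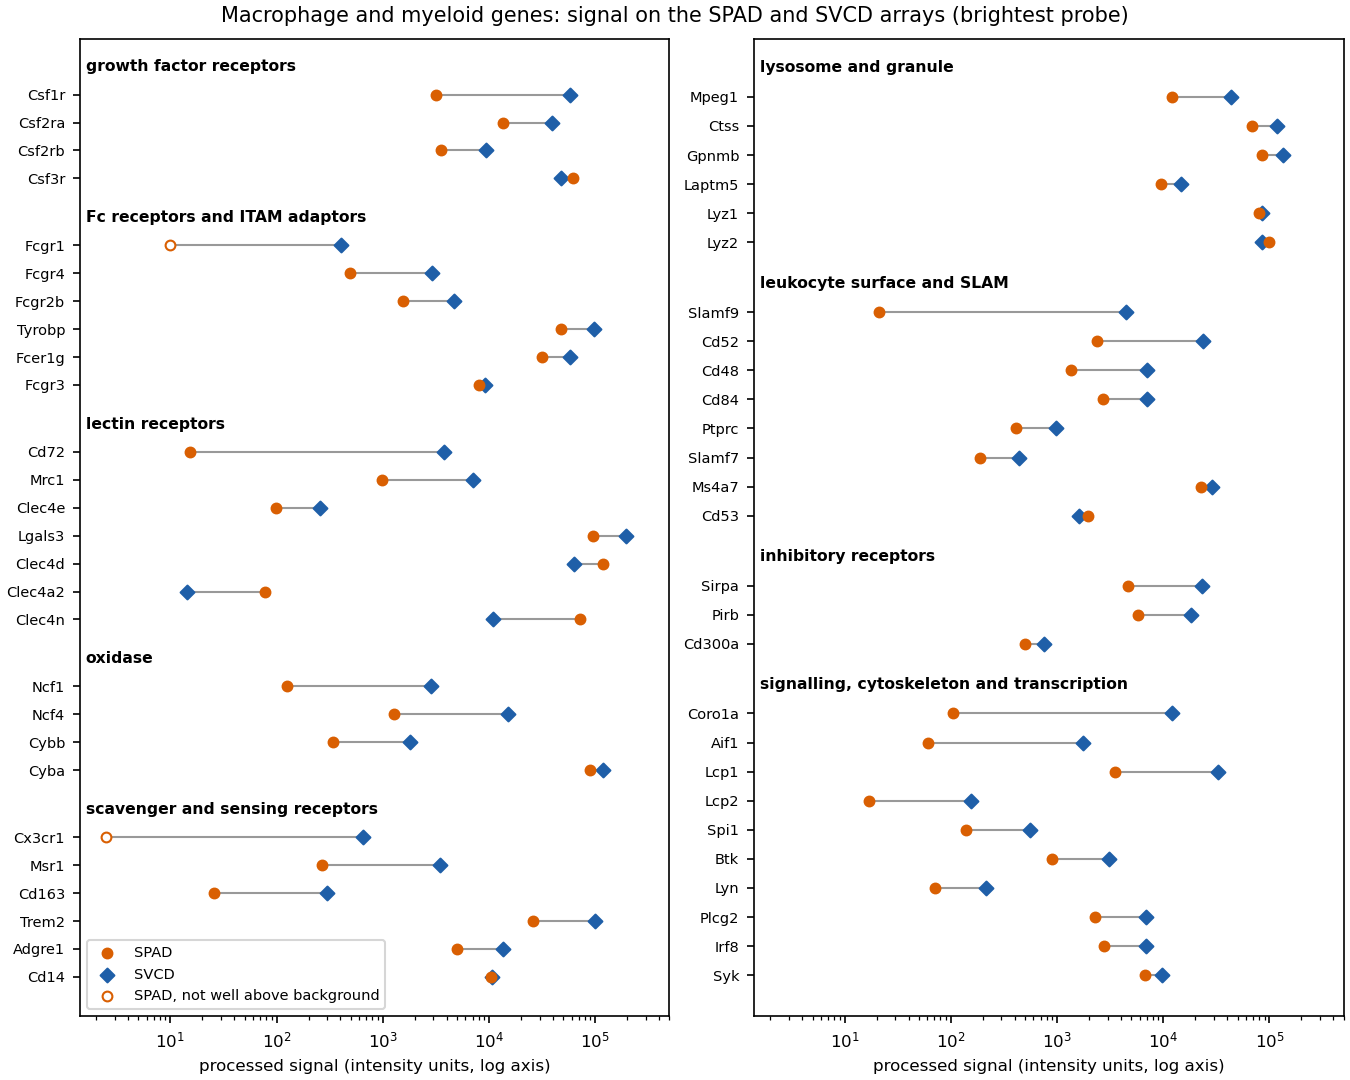
Processed signal of the brightest probe of each of the 54 genes on a log axis, with SPAD as circles, SVCD as diamonds and a line joining them, grouped by role. Open circles (Fcgr1 and Cx3cr1) mark SPAD signals not well above background. Most circles lie left of their diamonds, with Clec4n, Clec4a2 and Clec4d clearly to the right.

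**Figure D2:**
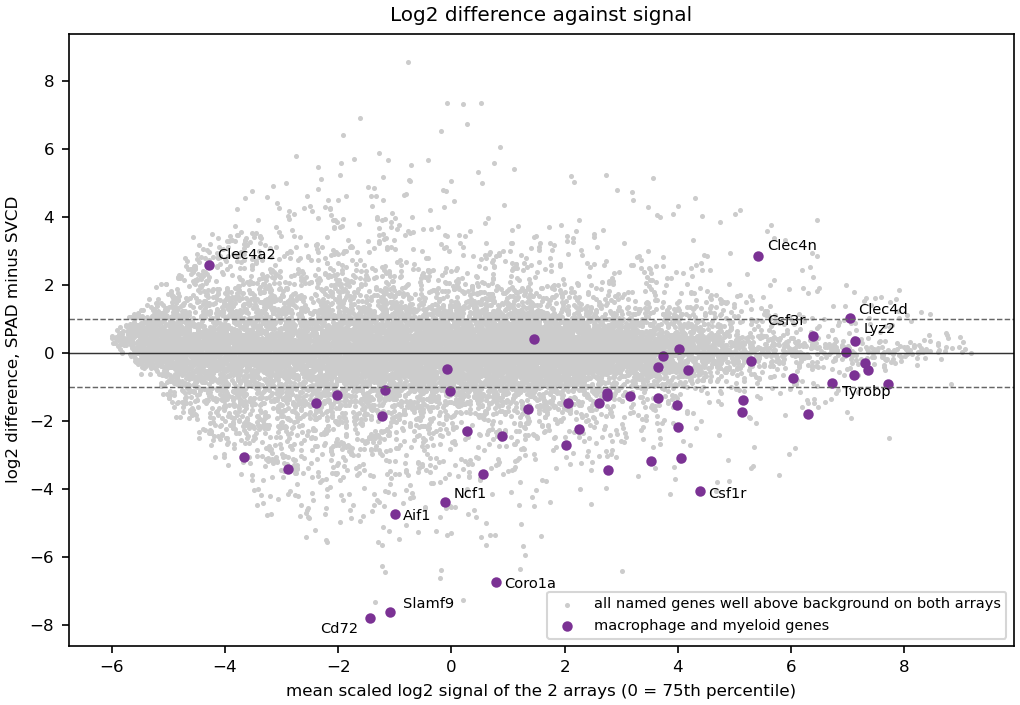
Log2 difference (SPAD minus SVCD) against the mean scaled log2 signal of the arrays for the genes well above background on both, with the 52 macrophage and myeloid genes in purple. Dashed lines mark 2-fold, and Cd72 and Slamf9 lie at the bottom of the cloud at -7.80 and -7.62.

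Promoters of 3 of the lowest members and of Clec4a2 and Clec4d, from the upper end, are shown because PU.1 (Spi1), the master transcription factor of myeloid cells, binds a purine-rich site with the core GAGGAA. Each sequence is the 250 bases before the RefSeq start (build GRCm38.p6), 5′ to 3′ on the gene's strand, with the core on either strand (GAGGAA or TTCCTC) in capitals. The windows are chr4:43454627-43454876 (minus strand) for Cd72, chr1:172475110-172475359 (plus) for Slamf9, chr7:126704817-126705066 (minus) for the first of 2 Coro1a starts, chr6:123122440-123122689 (plus) for Clec4a2 and chr6:123261857-123262106 (plus) for Clec4d.
Cd72: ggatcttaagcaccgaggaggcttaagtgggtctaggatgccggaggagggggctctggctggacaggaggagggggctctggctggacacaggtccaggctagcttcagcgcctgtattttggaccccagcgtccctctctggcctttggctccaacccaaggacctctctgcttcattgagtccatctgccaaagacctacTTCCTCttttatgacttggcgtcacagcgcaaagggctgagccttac
Slamf9: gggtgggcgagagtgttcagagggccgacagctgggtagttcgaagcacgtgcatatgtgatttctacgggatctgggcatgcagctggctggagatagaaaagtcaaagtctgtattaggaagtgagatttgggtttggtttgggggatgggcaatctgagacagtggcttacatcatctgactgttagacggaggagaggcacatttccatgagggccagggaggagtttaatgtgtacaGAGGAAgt
Coro1a: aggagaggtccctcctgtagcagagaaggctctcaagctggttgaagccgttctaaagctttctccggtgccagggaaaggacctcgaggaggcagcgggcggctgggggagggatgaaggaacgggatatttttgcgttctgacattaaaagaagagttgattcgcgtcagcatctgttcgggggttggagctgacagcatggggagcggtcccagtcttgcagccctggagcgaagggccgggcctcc
Clec4a2: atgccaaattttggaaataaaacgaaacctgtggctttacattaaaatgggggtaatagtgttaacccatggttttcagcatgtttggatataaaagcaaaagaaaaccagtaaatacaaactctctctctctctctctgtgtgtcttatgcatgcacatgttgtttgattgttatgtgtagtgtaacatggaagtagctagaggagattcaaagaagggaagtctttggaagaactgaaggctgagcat
Clec4d: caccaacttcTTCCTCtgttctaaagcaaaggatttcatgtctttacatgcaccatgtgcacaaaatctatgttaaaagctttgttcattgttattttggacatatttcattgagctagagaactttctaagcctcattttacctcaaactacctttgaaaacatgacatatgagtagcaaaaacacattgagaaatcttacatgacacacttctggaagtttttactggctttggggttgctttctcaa
The core began 47 bases before the start of Cd72, on the opposite strand, 8 bases before that of Slamf9, and 240 bases before that of Clec4d, on the opposite strand. The windows of Coro1a and Clec4a2 did not hold these letters. Clec4n, the highest member, had no window in the table. Of the members, 44 had at least 1 such window in the RefSeq table, 52 windows in all, and 23 of these (44.2%) held the core on either strand, as did 23.3% of all 32851 windows. The share was 36.7% of 30 windows among members at least 2-fold lower in SPAD and 47.1% of 17 windows among those within 2-fold. Of the 2 windows of members at least 2-fold higher, 1 held the core. The remaining windows belong to members without a value here and count in the 44.2%. A match shows the letters only, not binding.

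Of the 4 growth factor receptor genes, 3 were at least 2-fold lower in SPAD and Csf3r was not. Csf1r, whose ligands CSF1 and IL-34 keep macrophages alive, had a signal of 3185 in SPAD and of 58410.2 in SVCD, 16.8-fold lower (-4.07 ± 0.08). Its other probes gave -4.03 and -1.64, so they were all lower but did not give the same size. Csf2ra, the ligand-binding chain for GM-CSF, read 13563 in SPAD and 38937 in SVCD (-1.40 ± 0.08). Csf2rb, the signalling chain shared by GM-CSF and related cytokines, read 3561 and 9365 (-1.27 ± 0.08), with -1.49 on its other probe. On their brightest probes the GM-CSF receptor chains thus kept 38.0% and 41.5% of their SVCD level. Csf1r kept 5.95% on its brightest probe, but 32.0% on its probe at -1.64. Csf3r, the receptor of the neutrophil growth factor G-CSF, was slightly higher in SPAD, at 61717 against 47543 (0.50 ± 0.08), but -0.33 on the spike-in scale.

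The ligands went in both directions. Csf1 read 4397 in SPAD and 14060 in SVCD on its brightest probe (-1.55 ± 0.03), but its other probes gave only -0.08 and -0.10, so its probes disagree. Il34, the other ligand of the Csf1r protein, differed by 0.34 ± 0.14 at dim signals of 122 and 105. Csf2, which encodes GM-CSF, was well above background in SVCD alone, at a signal of 24.6, and at least 2.08-fold lower in SPAD. Csf3, which encodes G-CSF, was well above background on neither array. Cx3cl1, whose product binds the Cx3cr1 receptor, was 2.40-fold lower in SPAD, and Cd47, the ligand of the inhibitory receptor SIRPα (Sirpa), 3.01-fold higher (1.59 ± 0.08), with 1.46 on another probe.

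The Fc receptor genes were spread from near equality to detection in SVCD alone. Fcgr1, the high-affinity IgG receptor, had a signal of 407 in SVCD and of 9.93 in SPAD, not well above background there, and was at least 34.6-fold lower. Fcgr4, an activating IgG receptor, read 497 in SPAD and 2925 in SVCD (-2.43 ± 0.09). Fcgr2b, the inhibitory IgG receptor and the only member printed in 10 spots per array, read 1559 and 4715 (-1.47 ± 0.03). Fcgr3, the low-affinity activating receptor, read 8009 in SPAD and 9268 in SVCD (-0.09 ± 0.08), a difference of about the size of the spot error. The adaptor genes stood between: Fcer1g, which all activating Fc receptors need, read 31321 and 57405 (-0.75 ± 0.08), and Tyrobp 47885 and 97504 (-0.90 ± 0.08). All 6 genes of this group were thus below 0, and 3 were at least 2-fold lower. On the spike-in scale 5 were.

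The lectin receptors held the lowest member and all 3 that were at least 2-fold higher in SPAD. Clec4n, which encodes Dectin-2, a receptor for fungal mannans, read 71619 in SPAD and 10836 in SVCD, 7.21-fold higher (2.85 ± 0.08). Clec4a2, an inhibitory C-type lectin receptor, was also higher in SPAD but dim on both arrays, at 78.3 against 14.2 (2.58 ± 0.27). Clec4d, which encodes a partner of Mincle and Dectin-2, read 117092 and 62770 and was 2.03-fold higher (1.02 ± 0.08), a value at the 2-fold limit. It lay below 2-fold when the arrays were scaled to the median (0.95), by quantiles (0.75) or to the spike-ins (0.19). Clec4e, which encodes Mincle itself, a receptor for mycobacterial glycolipids, was lower in SPAD, at 99.4 against 256 (-1.24 ± 0.11).

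Mrc1, the mannose receptor often used as a marker of tissue-resident macrophages, read 991 in SPAD and 7107 in SVCD, 6.58-fold lower (-2.72 ± 0.08). Cd72, a lectin-like inhibitory receptor of B cells and macrophages, read 15.4 in SPAD and 3739 in SVCD (-7.80 ± 0.24), and its other probe was well above background in SVCD alone, with a bound of -7.96. The B cell markers did not share that pattern: Cd79b was 6.52-fold higher in SPAD at 145 against 24.2, Cd79a was detected in SPAD alone at 16.4, and Ms4a1 was well above background on neither array. Lgals3, which encodes the galactose-binding galectin-3 and is also made by many cells that are not myeloid, read 95666 and 195880 (-0.91 ± 0.08).

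Of the 4 members that encode the phagocyte NADPH oxidase, 3 were at least 2-fold lower in SPAD and Cyba was not. Cybb, the catalytic subunit gp91phox, read 338 in SPAD and 1823 in SVCD (-2.31 ± 0.09). Ncf1, which encodes the organiser p47phox, read 126 and 2855 and was 20.8-fold lower (-4.38 ± 0.11). Ncf4, which encodes p40phox, read 1280 and 15169 and was 10.9-fold lower (-3.44 ± 0.08). Cyba, the p22phox subunit that also serves oxidases of cells outside the myeloid lineage, read 88445 and 118660 (-0.30 ± 0.08), with -0.24 on its other probe. Rac2, the small GTPase of the complex, stood in the list of other myeloid genes and was 5.07-fold lower in SPAD. The 3 members past 2-fold stood in SPAD at between 4.80% and 20.2% of their SVCD level, and Cyba at 81.3%.

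Among scavenger and sensing receptors 5 of 6 were at least 2-fold lower. Cx3cr1, the fractalkine receptor of monocytes and resident macrophages, had 645 in SVCD and 2.50 in SPAD on its brightest probe and was at least 54.8-fold lower; its other probes gave bounds of 45.5-fold and 8.41-fold. Msr1, the class A scavenger receptor, read 268 in SPAD and 3446 in SVCD (-3.56 ± 0.09), and its other probe gave -5.57. Cd163, the haemoglobin scavenger receptor, read 25.7 and 300.1 (-3.42 ± 0.25). Trem2, a lipid-sensing receptor that signals through DAP12, read 26078 and 99131 (-1.80 ± 0.08), and Adgre1, the gene of the F4/80 antigen, 4969 and 13508 (-1.32 ± 0.08), or -1.03 on its other probe. Cd14, the lipopolysaccharide co-receptor, was nearly equal at 10421 and 10567 (0.11 ± 0.08).

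Genes of the macrophage lysosome and granules differed least. Only Mpeg1, which encodes the pore-forming perforin-2, was at least 2-fold lower, at 12039 in SPAD against 43451 in SVCD (-1.73 ± 0.08, and -2.23 on its other probe). The lysozyme genes Lyz1 (79050.4 and 84666, 0.03 ± 0.08) and Lyz2 (98429 and 84459, 0.35 ± 0.08) were close to equal, and Lyz1 was slightly negative when scaled to the median (-0.05), by quantiles (-0.28) or with another background correction (-0.01). They are near-identical copies, and whether their probes tell them apart was not tested. Ctss, a cathepsin that processes antigens, differed by -0.65, Gpnmb, a glycoprotein of lipid-laden macrophages, by -0.51, and Laptm5, a lysosomal protein of blood cells, by -0.50 (all ± 0.08). On the spike-in scale 4 of these 6 genes were at least 2-fold lower.

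Leukocyte surface genes were at least 2-fold lower in 6 of 8 cases. Slamf9, a SLAM family receptor of myeloid cells, read 21.0 in SPAD and 4498 in SVCD (-7.62 ± 0.25). The other SLAM family members were less far apart: Cd48 read 1367 and 6991 (-2.23 ± 0.08), Cd84 2688 and 7037 (-1.26 ± 0.08) and Slamf7 188 and 441 (-1.10 ± 0.11). Cd52, a small glycoprotein on leukocytes, read 2382 and 23537 and was 9.06-fold lower. Ptprc, which encodes the pan-leukocyte phosphatase CD45, read 412 in SPAD and 982 in SVCD (-1.13 ± 0.09). The tetraspanin gene Cd53 (0.41 ± 0.08) and Ms4a7 (-0.23 ± 0.08) were within 2-fold.

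Of the inhibitory receptors, Sirpa, which binds CD47 and restrains phagocytosis, read 4685 in SPAD and 23089 in SVCD (-2.18 ± 0.08). Pirb, a receptor for MHC class I, read 5788 and 18417 (-1.54 ± 0.08), and Cd300a, a receptor for membrane phospholipids, 502 and 754 (-0.46 ± 0.09). Pirb has close relatives in the genome, and cross-binding of its probe was not tested.

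Of the genes for signalling, the cytoskeleton and transcription, 9 of 10 were at least 2-fold lower and all 10 below 0. Coro1a, an actin regulator of leukocytes, read 104.0 in SPAD and 11986 in SVCD and was 106-fold lower (-6.72 ± 0.11). Aif1, the calcium-binding protein IBA1, read 60.4 and 1743 (-4.72 ± 0.11), and Lcp1, the actin bundler L-plastin, 3541 and 32958 (-3.09 ± 0.08). The adaptor gene Lcp2, which encodes SLP-76, was dim at 16.8 and 155 (-3.08 ± 0.26). The signalling genes Btk (-1.65 ± 0.08), Lyn (-1.47 ± 0.14) and Plcg2 (-1.47 ± 0.08) were between 2.76-fold and 3.14-fold lower. Syk, the kinase that acts just below the ITAM adaptors, read 6757 and 9800.0 (-0.41 ± 0.08). It is found in other cell types too, but whether that bears on its smaller difference was not tested. Of the transcription factor genes, Spi1 itself read 139.8 in SPAD and 554 in SVCD (-1.86 ± 0.11), and Irf8, a monocyte lineage factor, 2784 and 6903 (-1.18 ± 0.08).

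Of the 54 genes, 13 were read by more than 1 probe, and every probe of these 13 was lower in SPAD. In 11 of the 13, all probes were past 2-fold. For Csf1r, Cx3cr1 and Msr1 the probes lay at least 1 log2 unit apart, so their direction is shared but their size is not settled. The other 41 genes rest on a single probe, read in a single spot per array except for Fcgr2b.

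**Figure D3:**
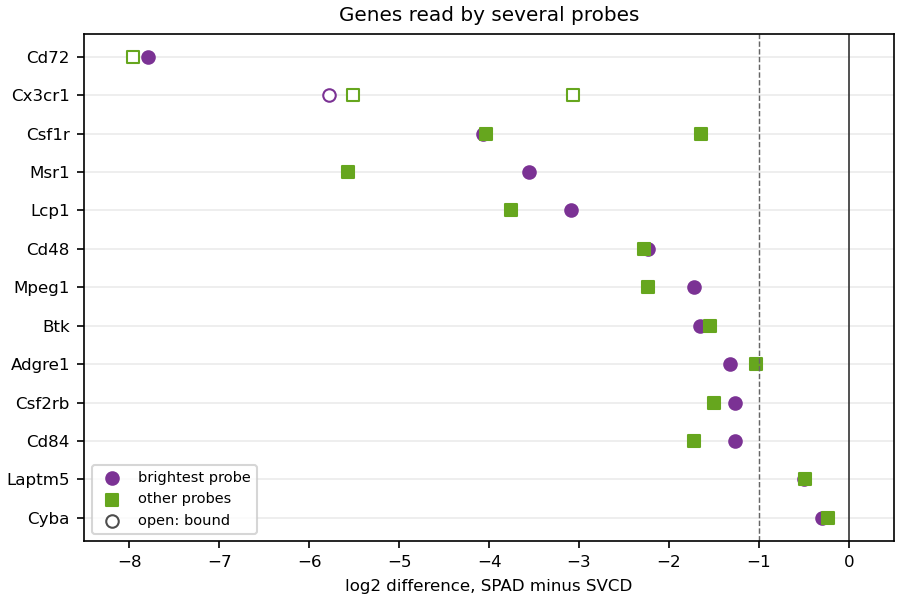
Log2 difference (SPAD minus SVCD) of each probe for the 13 genes read by several probes, with the brightest probe as a circle, other probes as squares and open symbols for bounds. All points lie below 0, and the dashed line marks 2-fold lower.

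A list of 50 other myeloid genes, none of them among the 56, lay in the same direction. Of 49 detected, 34 were at least 2-fold lower in SPAD, against 14.1% of all detected genes. At least 2-fold higher were 2, against 16.3% of all detected genes, and the median of the list was -1.94. Among the largest differences were those of the inhibitory receptor genes Pilra (34.8-fold lower, and -6.02 and a bound of -4.48 on its other probes) and Lair1 (23.8-fold, with a bound of 8.69-fold on another probe), and the activation marker Cd83 (22.7-fold). Cd180, a Toll-like receptor homologue, was detected in SVCD alone and at least 21.5-fold lower. The complement receptor gene Vsig4, a marker of resident macrophages, was 16.1-fold lower, the phospholipase family gene Pld4 read 34.0 in SPAD and 594 in SVCD, and the transcription factor gene Maf was 13.3-fold lower. The exceptions, named after their values were seen, were Clec10a, another C-type lectin gene (6.74-fold higher in SPAD), and Slc11a1, a phagosomal metal transporter (2.71-fold higher). In the list of 14 genes of lipid-associated macrophages and lysosomes, 5 were at least 2-fold lower and none 2-fold higher, with a median of -0.41. Dcstamp, needed for macrophage fusion, was at least 16.4-fold lower, the phosphatase gene Acp5 4.46-fold and the osteopontin gene Spp1 4.19-fold.

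**Figure D4:**
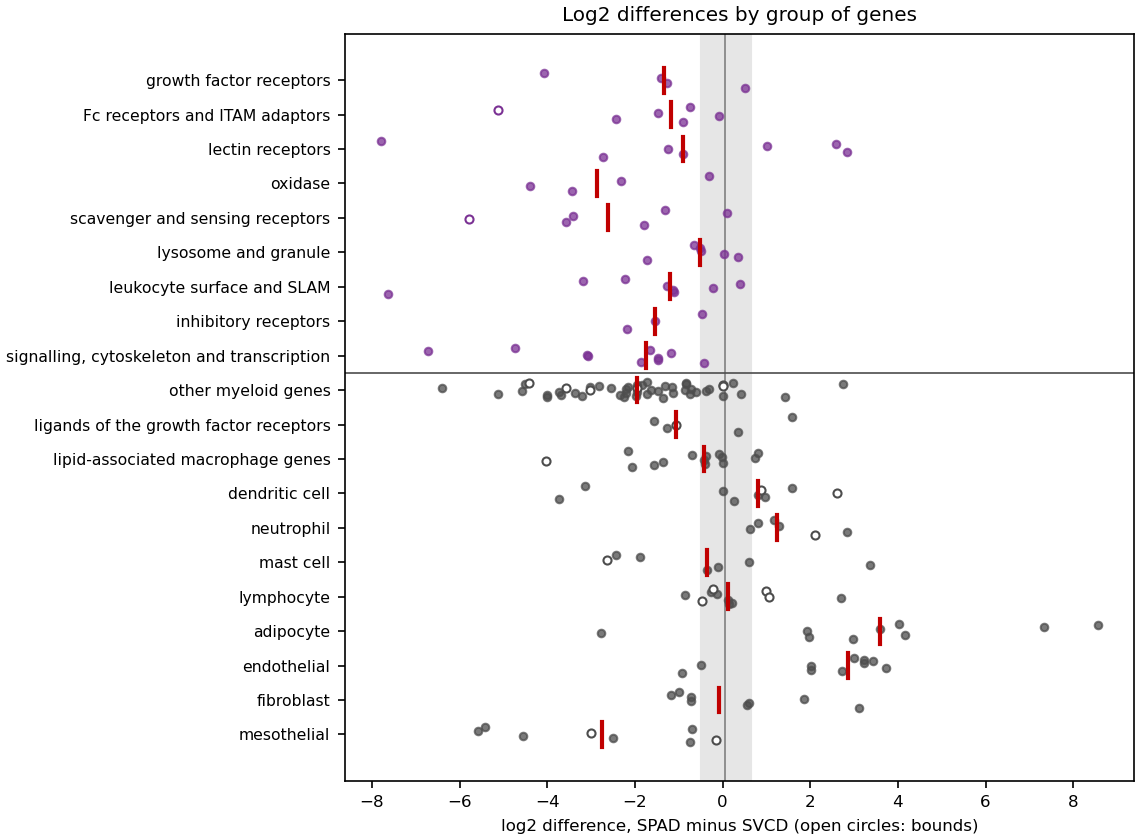
Log2 differences (SPAD minus SVCD) of single genes, with the macrophage and myeloid genes by role above the line and the other lists below it. Red bars are medians, open circles bounds, and the grey band spans the quartiles of all detected genes (-0.50 to 0.66). Most purple points lie left of the band.

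Markers of other cells also differed between the arrays, in both directions. Of 10 detected endothelial markers 8 were at least 2-fold higher in SPAD (median 2.86, and 2.07 with normexp, a model-based background correction; summed signal 16619 against 6896 in SVCD), led by Sox17, Erg and Esam (log2 3.74, 3.43 and 3.23). Of 9 detected adipocyte markers 8 were higher (median 3.59, and 2.12 with normexp; summed signal 129901 against 52796), led by Car3, Cfd and Plin1 (378-fold, 162-fold and 18.0-fold). Of 8 mesothelial markers 5 were at least 2-fold lower and none higher (median -2.74, but -0.99 with normexp and -3.52 in the authors' deposited table; summed signal 1271 against 11772), among them Krt8 (47.7-fold), Krt18 (42.7-fold) and Msln (23.5-fold). Of 8 fibroblast markers 2 were higher and 1 lower (median -0.08, summed signal 34601 against 39482). In a list of 8 such counts cannot be told apart from the shares of all detected genes, 16.3% upward and 14.1% downward. Thy1 was 8.72-fold and Dcn 3.65-fold higher and Col1a2 2.26-fold lower. The proliferation marker Mki67 was 18.9-fold lower, and 21.8-fold on its other probe. The part of cell make-up or of growth in the myeloid differences was not tested.

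Markers of other leukocytes differed in both directions, and the direction depended on the list. Of 6 neutrophil markers detected, of 10 with a probe, 4 were past 2-fold upward in SPAD and none downward (median 1.23, and 0.40 on the spike-in scale; summed signal 28285 against 8342). S100a8 read 16015 in SPAD and 2459 in SVCD, S100a9 was detected in SPAD alone at 34.0 and at least 4.32-fold higher, and Mmp8 was 2.45-fold higher. Ngp, Ltf, Cxcr2 and Retnlg were well above background on neither array. Of 9 dendritic cell and class II genes detected, of 12 with a probe, 2 were at least 2-fold higher and 2 lower (median 0.81, but -0.02 on the spike-in scale; summed signal 6500 against 11349). Itgax was 13.4-fold and Batf3 8.82-fold lower, and H2-Aa was at least 6.13-fold higher, at a signal of 48.3. Of 7 mast cell markers detected, 1 was higher (Kit, 10.2-fold) and 3 lower, among them Fcer1a (at least 6.24-fold) and Cma1 (5.42-fold). The mast cell median was -0.36, with a summed signal of 1419 in SPAD against 1139 in SVCD. Of 11 lymphocyte markers detected, of 15 with a probe, 2 were at least 2-fold higher and none lower (median 0.11, summed signal 2682 against 2867). The 2-fold limit was passed upward by 16.3% of all detected genes and downward by 14.1%. Counts of 1 or 2 in lists this short cannot be told apart from those shares.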

How the data were processed

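The submitters' processing notes name Feature Extraction 10.7.3.1, Agilent's scanner software. The deposited processed intensity is background-subtracted and spatially detrended, per the file headers. Of 44397 spots per array, 1377 controls and 73 (SPAD) or 85 (SVCD) outlier spots were left out. Log2 signals were averaged per probe, and each array was centred on its 75th percentile. Probes were named through RefSeq transcripts of GRCm38.p6 without version numbers, whereas the file headers give build mm9, so no array coordinates are printed. Each gene was read by its brightest probe over both arrays (mean of the log2 signals), and detection was the scanner's flag for signals well above background. For a gene not well above background on 1 array, the fold is a bound against the higher of its own value and the dimmest detected probe there. The size rule was 2-fold.

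Spot error came from probes printed 10 times, in 6 bins of signal per array. The SD between spots on an array ran from 0.25 in the dimmest bin to 0.05. The authors' deposited table holds log2 values centred per probe, its columns being opposite in sign. It was used as an alternative. Against the scanner log2 differences, its column difference was shifted by 0.12. Precision is limited by having 1 array in each group. Sums of signals over a marker list add probes of unlike response and serve only to set the arrays side by side.

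The members, gene lists and promoter motif were chosen with earlier results of these data known. Named were all members, the 8 largest differences among other myeloid genes, all ligands, and 3 per other list, except that a few context genes are not reported here. The alternatives were other scalings, limma 3.58.1 normexp (offset 50) on the median spot signal, since no mean signal column was used, other probe rules and detection filters, and a 4-fold rule. The calculation was tested on simulated data. Python 3.11.15 and R 4.3.3 were used.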

Additional observations from a re-analysis of the deposited data

How the results depend on the processing

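No member past 2-fold changed direction under any alternative. The count at least 2-fold lower stayed between 32 (normexp) and 45 (spike-in scaling) of the members and was 19 with a 4-fold rule, which left 1 growth factor receptor, Csf1r. The median was -2.26 on the spike-in scale, and 5 Fc receptor and adaptor genes were then past 2-fold, as were 4 lysosome and granule genes. Apart from these, the total counts of members lower or higher stayed within 1.5 times, with 2 higher by the median, quantile and spike-in scalings and the 4-fold rule, and the median never came closer to 0 than -1.36. Without a filter on dim probes the median of all genes moved by 0.18. With normexp, whose offset shrinks dim signals, 10 members moved by over 1.5-fold. Cd72 was then at -5.69, Slamf9 at -5.85, Coro1a at -6.10, Cx3cr1 at -3.30, Fcgr1 at -2.59, Clec4a2 at 1.09, Ncf1 at -3.69, Aif1 at -3.64, Cd163 at -2.07 and Lcp2 at -1.503, and 3 members fell short of 2-fold (Clec4e at -0.82, Slamf7 at -0.92 and Lyn at -0.91). The medians of the context lists moved more. Each fell by 0.83 on the spike-in scale. The mesothelial median lay between -3.57 and -0.99, the adipocyte median between 2.12 and 3.59, the endothelial between 2.03 and 2.86, the mast cell between -1.89 and -0.23, and the neutrophil between 0.40 and 1.27. That of the receptor ligands lay between -1.89 and -0.10, and the lymphocyte median was negative by quantiles (-0.12) and on the spike-in scale (-0.72). The fibroblast median was 0.03 with normexp. No paired analysis was possible because each group has 1 array. Signals near the background limit the folds of Cd72, Slamf9, Lcp2, Cd163 and Clec4a2.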

Other observations

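The Clec4 genes that were higher in SPAD are neighbours, an observation made after their values were seen. In the RefSeq gene order of mouse chromosome 6 the protein-coding genes run Clec4a2, Clec4b2, Clec4n, Clec4d and Clec4e. The log2 differences of Clec4a2, Clec4n and Clec4d were 2.58, 2.85 and 1.02, that of Clec4e was -1.24, and Clec4b2 was well above background on neither array. Clec4a1 and Clec4a3, from the list of other myeloid genes, were lower in SPAD, by 3.59-fold and 3.85-fold. A shared probe response among these related genes was not tested.

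The IgG receptor genes of chromosome 1 also lie side by side, in the order Fcgr2b, Fcgr4 and Fcgr3. Their log2 differences were -1.47, -2.43 and -0.09, so neighbours in this run were not equally far apart. Genes between them and Fcer1g (-0.75) differed in both directions: Cfap126 by -0.01, Sdhc by 0.06, Pcp4l1 by -4.83, Nr1i3 by 3.43, Tomm40l by -1.11 and Apoa2 by 0.18.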
